A study of Mus musculus with 18 samples.

Results

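The genes described here act in efferocytosis, the clearance of apoptotic cells by phagocytes. There are 9 of them, chosen by symbol from a first look at the same macrophage libraries: the ligands Gas6 and Pros1, the receptors Mertk and Axl, the bridging protein gene Mfge8, the phosphatidylserine receptors Timd4 and Cd300a, and the engulfment genes Elmo1 and Dock1. All 9 were among the 13759 genes counted in metastasis-associated macrophages (MAMs). The series as a whole holds 54562 genes over both of its tables.

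MAMs were sorted as lin- CD45+ CD11b+ cells with high or low F4/80 from liver metastases of female mice, 3 libraries of each subset. F4/80, encoded by Adgre1, is a surface protein of mature macrophages, and the study's text calls the F4/80low subset F4/80int. Metastases had grown from MC38 cells, a murine colon adenocarcinoma line, given into the spleen of mice aged 8 to 10 weeks. The spleen was then taken out, and livers were analysed 20 days later. The study buys its C57BL/6J mice as females, and no genetic change and no treatment other than the tumour is named for the mice of either experiment. The other experiment sorted NKp46+ type 1 lymphocytes, 3 libraries each, from pools of 6 to 8 samples: CD49a-CD49b+ NK cells and CD49a+CD49b- ILC1 of the metastasis-free liver (MFL), and CD49a-CD49b+ and CD49a+CD49b+ NK cells of the liver metastases (LM). The titles of the last group say ILC1 and its population labels say CD49a+ NK cells, and the labels were followed. How many mice stand behind a MAM library is not given in the sources used here, so p-values in the MAMs measure only the spread between these libraries, which may be technical.

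Dying cells are marked by phosphatidylserine, a lipid that moves to the outer face of their membrane. Some receptors, such as TIM-4 (Timd4), bind this lipid directly. Others need a bridge: GAS6 and protein S (Pros1) carry vitamin K-dependent carboxylated residues that hold phosphatidylserine. Their other end binds receptors of the TAM tyrosine kinase family, which is made up of TYRO3, AXL and MERTK. The ligands need not share all of these receptors. MFG-E8 bridges phosphatidylserine to αv integrins. Inside the phagocyte, ELMO1 and DOCK1 form an exchange factor for the GTPase RAC1, which drives the membrane around its cargo. In the healthy liver TIM-4 is a marker of resident Kupffer cells.

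On the GRCm39 genome, with positions of the GENCODE vM39 annotation, the genes lie on several chromosomes. Gas6 (ENSMUSG00000031451.7) spans 13515371 to 13544824 of chromosome 8, minus strand. Pros1 (ENSMUSG00000022912.9) spans 62674275 to 62749710 of chromosome 16, plus strand. Mertk (ENSMUSG00000014361.6) lies on chromosome 2 from 128540729 to 128645080, plus strand. Chromosome 7 holds Axl (ENSMUSG00000002602.17, 25456535 to 25488329, minus strand), Mfge8 (ENSMUSG00000030605.16, 78783515 to 78798825, minus strand) and Dock1 (ENSMUSG00000058325.7, 134272372 to 134775375, plus strand). Chromosome 11 holds Timd4 (ENSMUSG00000055546.7, 46701620 to 46735177, plus strand) and Cd300a (ENSMUSG00000034652.13, 114768840 to 114795480, plus strand). Elmo1 (ENSMUSG00000041112.18) spans 20274428 to 20792523 of chromosome 13, plus strand. All are protein-coding, and the values are sums over each whole gene.

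Libraries held 21278959 to 32267015 counts in the MAMs and 8795721 to 14386834 in the lymphocytes. Levels are CPM, a gene's counts scaled to a common library total, after TMM scaling of the libraries within each table, and the 2 tables were not scaled together. Adgre1 stood at 806 to 1167 CPM in the F4/80high and 124 to 160 CPM in the F4/80low libraries, in the order of the sort. Summed over 8 macrophage markers, the F4/80high libraries held 14956 to 20522 CPM and the F4/80low libraries 9395 to 12116 CPM. The F4/80low libraries held more RNA of classical monocyte markers (2144 to 2427 against 473 to 594 CPM over 8 genes, all 8 called lower in F4/80high) and of dendritic cell markers (500.4 to 813 against 20.2 to 27.8 CPM over 7 genes, 6 called lower). Fibroblast and stellate cell markers went the other way, with 258 to 556 CPM in F4/80high against 43.4 to 151 CPM over 5 genes, 4 of them called higher. Clec4f, which defines Kupffer cells, reached 2.80 CPM at most in any MAM library. The part of these other cell types in the differences below was not tested, and in sorted bulk RNA a change in the share of cells with a gene and a change in its RNA per cell cannot be told apart.

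**Figure D1:**
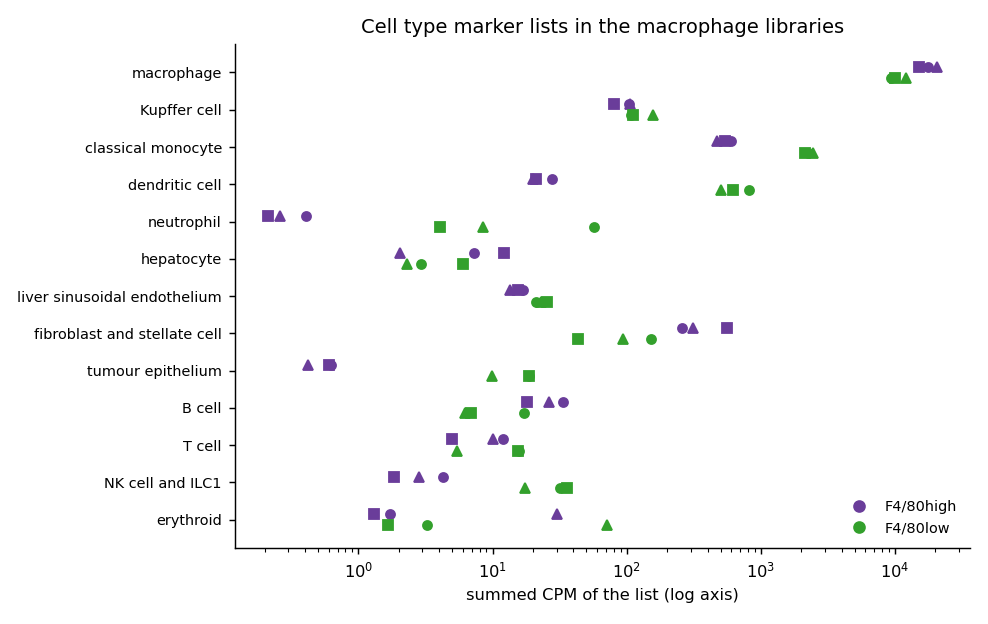
Summed CPM of each cell type marker list in the 6 MAM libraries, on a log axis, with 1 point per library (circle, square and triangle are replicates 1, 2 and 3) in violet for F4/80high and green for F4/80low. Classical monocyte and dendritic cell lists sit higher in all F4/80low libraries, and the fibroblast list in all F4/80high libraries.

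The F4/80high against F4/80low contrast was the one from which the genes had been picked, so its values are a description and carry no test. Of the 9 genes, 5 were higher and 4 lower in F4/80high MAMs, and in none did the libraries of the subsets overlap. Among all 13759 genes, 58.4% had no overlap, 29.8% with F4/80high above and 28.6% with F4/80low above. The median log2 fold change of the 9 genes was 0.38, against 0.01 over all genes, and the median of its absolute value was 1.68 against 0.39.

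Gas6, the TAM ligand that binds AXL, MERTK and TYRO3, was the gene with the largest contrast of the 9. F4/80high libraries held 242, 222 and 303 CPM (5385, 6264 and 9336 counts), and F4/80low libraries 2.13, 2.15 and 4.54 CPM (65, 63 and 105 counts). Its mean was 256 ± 42.0 CPM (SD, n = 3) against 2.94 ± 1.38 CPM (SD, n = 3), 88.8-fold higher in F4/80high, with a log2 fold change of 6.47 (SE 0.29). Only 3 of the 13759 genes had a larger positive log2 fold change. Fibroblasts also make GAS6. Their marker sum was higher in every F4/80high library (258 to 556 CPM) than in any F4/80low library (43.4 to 151 CPM). Within F4/80high, replicate 2 had the highest marker sum (556 CPM) and the lowest Gas6. Replicate 3, with the highest Gas6, had a marker sum of 311 CPM. The same genes summed to 151 CPM in F4/80low replicate 1, where Gas6 stood at 2.13 CPM. The part of fibroblasts in the Gas6 difference was not tested.

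Pros1, which encodes protein S, the second TAM ligand and an anticoagulant cofactor, differed much less. It stood at 65.8, 53.6 and 77.5 CPM in F4/80high and at 30.9, 36.3 and 33.9 CPM in F4/80low libraries, a 1.95-fold difference (log2 fold change 0.96, SE 0.14). The 2 ligands therefore changed places. Per kilobase of exon, the scale on which levels of different genes are compared here, Gas6 was 4.24, 4.75 and 4.49 times Pros1 in the F4/80high libraries. In the F4/80low libraries it was 0.0794, 0.0681 and 0.154 times Pros1.

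The receptors moved in opposite directions. Mertk, the TAM receptor linked to clearance by resting and tolerogenic macrophages, stood at 87.7, 75.8 and 96.8 CPM in F4/80high and at 23.4, 25.5 and 25.2 CPM in F4/80low libraries. It was 3.51-fold higher in F4/80high, with a log2 fold change of 1.81 (SE 0.11). Axl, the TAM receptor induced by interferon and inflammatory stimuli, was lower in F4/80high by 0.44 on the log2 scale (SE 0.12), at 735, 700.0 and 905 CPM against 1051, 1109 and 1007 CPM. The lowest F4/80low library and the highest F4/80high library lay close together, at 1007 and 905 CPM.

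Axl still had the highest level of the 9 genes per kilobase in both subsets, at 85.0 ± 11.9 CPM per kb (SD, n = 3) in F4/80high and 115 ± 5.57 CPM per kb (SD, n = 3) in F4/80low. Its ratio to Mertk was 4.39, 4.84 and 4.89 in F4/80high libraries and 23.5, 22.7 and 21.0 in F4/80low libraries. The surplus of Axl over Mertk RNA was thus smaller in every F4/80high library than in any F4/80low library.

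Mfge8, whose protein links apoptotic cells to αv integrins, was lower in F4/80high, at 23.1, 26.1 and 20.1 CPM against 82.5, 68.1 and 72.0 CPM. The difference was 3.21-fold, with a log2 fold change of -1.68 (SE 0.12). F4/80high was therefore the subset with more of both TAM ligands and less of the integrin bridge.

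Both direct phosphatidylserine receptors were lower in F4/80high. Timd4 had 2, 14 and 16 counts in F4/80high libraries (0.0901, 0.496 and 0.519 CPM) and 222, 256 and 213 counts in F4/80low libraries (7.29, 8.74 and 9.21 CPM). Its log2 fold change was -4.44 (SE 0.42), a 21.7-fold difference, and F4/80high replicate 1 lay under the 0.135 CPM that 3 counts are worth there. Timd4 was thus the lowest of the 9 genes per kilobase in F4/80high, at 0.093 ± 0.061 CPM per kb (SD, n = 3), and the second lowest in F4/80low, at 2.12 ± 0.253 CPM per kb (SD, n = 3). Of 7 other Kupffer cell markers measured, 5 were called higher in F4/80high and 1 lower, and the list summed to 80.3 to 105 CPM in F4/80high against 108 to 156 CPM in F4/80low libraries.

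Cd300a encodes an inhibitory receptor that recognizes phosphatidylserine and phosphatidylethanolamine. It stood at 57.8, 39.9 and 37.1 CPM in F4/80high and at 169, 164 and 179 CPM in F4/80low libraries, a 3.81-fold difference (log2 fold change -1.93, SE 0.16). Cd300a belongs to a family of similar genes on 1 chromosome, and reads shared among them could have been split between members by the counting.

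Elmo1 and Dock1, the partners of the RAC1 exchange factor, differed by less than the TAM ligands did. Dock1 stood at 63.7, 63.1 and 70.0 CPM in F4/80high and at 37.6, 43.9 and 39.7 CPM in F4/80low libraries, 1.63-fold higher (log2 fold change 0.70, SE 0.09). Elmo1 was 1.30-fold higher (log2 fold change 0.38, SE 0.11), at 192, 185 and 224 CPM against 142, 175 and 145 CPM. Its groups were the closest of the 9, with 185 CPM in the lowest F4/80high and 175 CPM in the highest F4/80low library. Per kilobase, Elmo1 exceeded Dock1 2.06, 2.00 and 2.19 times in F4/80high and 2.58, 2.73 and 2.50 times in F4/80low libraries.

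**Figure D2:**
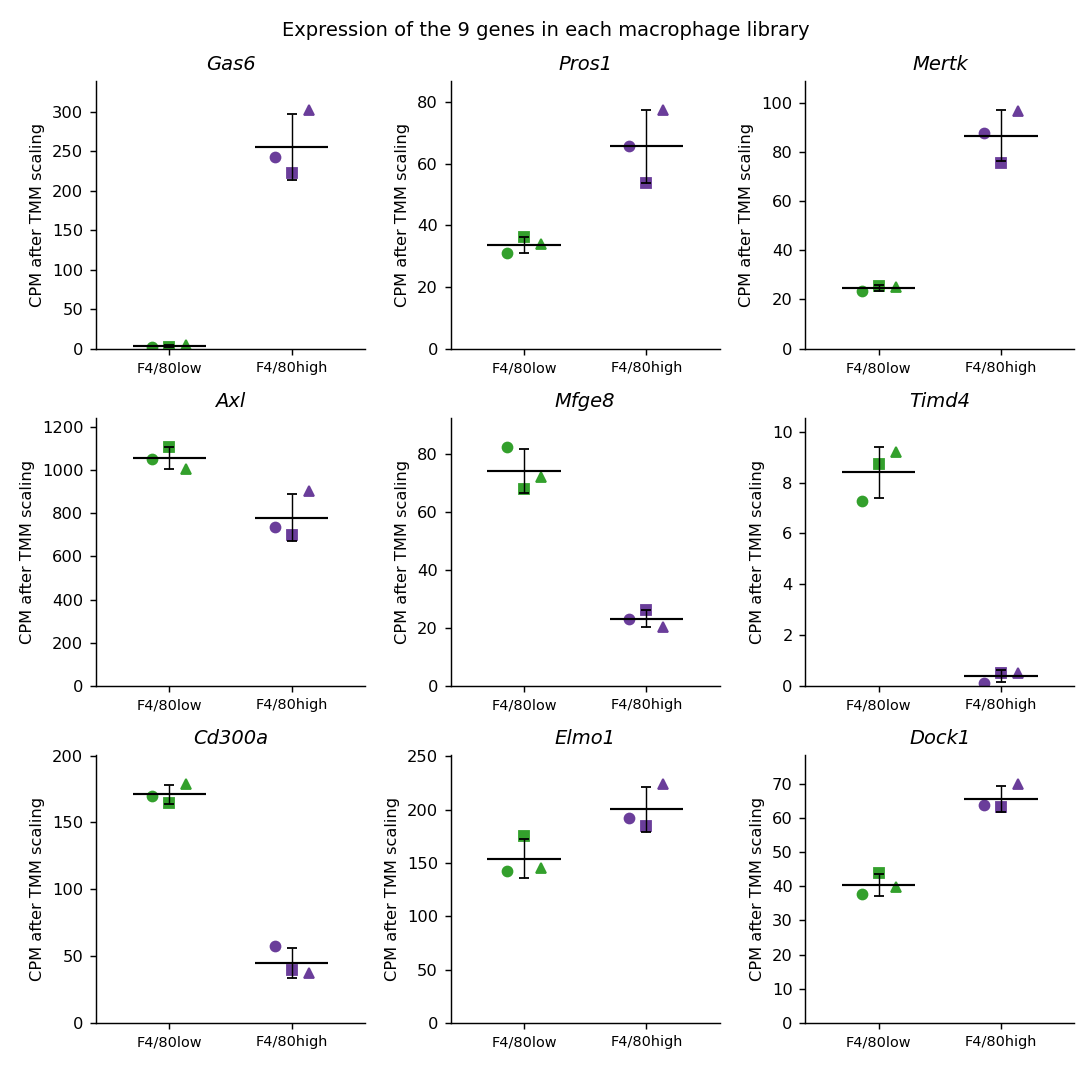
CPM after TMM scaling of each of the 9 genes in the 3 F4/80low (green) and 3 F4/80high (violet) MAM libraries, with circle, square and triangle for replicates 1, 2 and 3, a line for the mean and bars for the SD. Every axis starts at 0, and the groups do not overlap in any panel, with Gas6 near 0 in F4/80low and Timd4 near 0 in F4/80high.

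Ranked per kilobase in F4/80high MAMs, the order ran Axl, Gas6, Mertk, Elmo1, Pros1, Cd300a, Dock1, Mfge8 and Timd4. The libraries of Mertk (mean 18.0 CPM per kb) overlapped those of Elmo1 (14.3), and those of Pros1 (10.4) overlapped those of Cd300a (9.12). The other neighbours did not overlap. In F4/80low MAMs the order was Axl, Cd300a, Mfge8, Elmo1, Pros1, Mertk, Dock1, Timd4 and Gas6, and Pros1 (5.33 CPM per kb) overlapped Mertk (5.14). Gas6 was thus second of 9 in one subset, at 46.5 CPM per kb, and last in the other, at 0.535 CPM per kb.

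Over the 6 MAM libraries and the 10080 genes with a mean of at least 5 CPM, the 3 genes most correlated with Gas6 in log2 CPM were Plod1, Ppcdc and Ptgs1, all with Pearson's r of 1.00. Those most like Mertk were Slco2b1, B3glct and Gpr65, also at 1.00 each, and those most like Axl were Pnpla6, Bicra and Papolg, at 0.997 each. With 6 libraries in 2 groups any gene that separates the subsets correlates highly: 957 genes exceeded 0.95 with Gas6, 957 with Mertk and 311 with Axl.

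The other genes of the pathway were tested in the same libraries, from a list of 97 ordered by role. Of these, 93 were in the MAM table and tested. At an adjusted p under 0.1 (edgeR quasi-likelihood test, Benjamini-Hochberg over all genes), 32 were higher and 34 lower in F4/80high MAMs, and 27 were not called. The called share was 71.0%, against 54.9% of all genes, 27.8% higher and 27.1% lower. Their median log2 fold change was -0.05, against 0.01 over all genes. Of the genes that follow, those outside the rule for named genes were chosen after their values were seen and by no fixed rule. Other called genes of the same lists are not named.

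**Figure D3:**
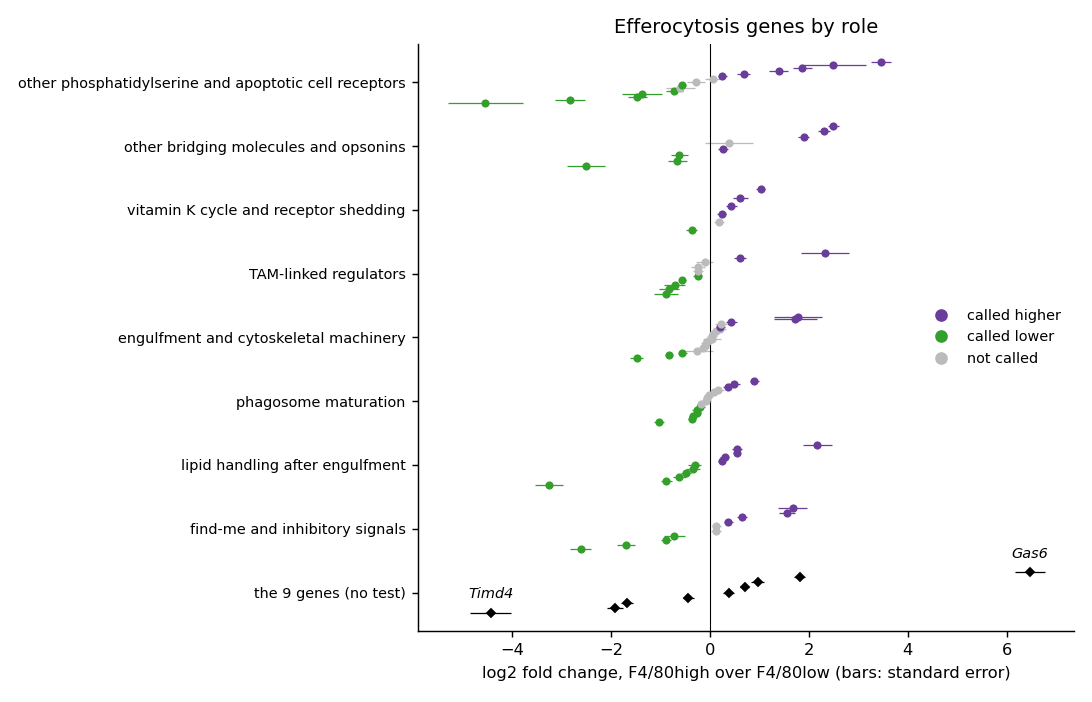
Log2 fold change of F4/80high over F4/80low MAMs (x axis, with the standard error as bars) for the 93 pathway genes, in rows by role, and for the 9 genes in black at the bottom, with no test. Violet points were called higher, green points lower and grey points not called; Gas6 and Timd4 lie at the 2 ends of their row, and every role except lipid handling holds genes that were not called.

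Among other bridging molecules and opsonins, 4 of 8 rose and 3 fell. The 3 chains of C1q, the complement protein that coats apoptotic cells, rose together. C1qc stood at 3038, 2690 and 3209 CPM in F4/80high and at 525, 483 and 579 CPM in F4/80low libraries (log2 fold change 2.49, SE 0.12, adjusted p = 3.15e-06, edgeR). C1qa rose by 2.30 (adjusted p = 5.11e-06) and C1qb by 1.90 (adjusted p = 7.19e-06) on the log2 scale. Thbs1, which bridges apoptotic cells to CD36 and αv integrin, fell by 2.52 (adjusted p = 0.00101), and Fn1 and Anxa1 fell by 0.67 and 0.62. Anxa5, a phosphatidylserine-binding annexin, rose by 0.25 (adjusted p = 0.0718).

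The machinery that makes GAS6 and protein S active was also measured. Ggcx, the γ-carboxylase that modifies both ligands, rose from 10.1 ± 1.40 to 15.5 ± 1.67 CPM (SD, n = 3 each, log2 fold change 0.61, adjusted p = 0.00865, edgeR). Vkorc1, which recycles the vitamin K it uses, rose from 14.0 ± 0.235 to 28.5 ± 1.60 CPM (log2 fold change 1.02, adjusted p = 4.86e-05). The related Vkorc1l1 was not called, with a log2 fold change of 0.18 (adjusted p = 0.161). Of the proteases, Adam17 and Adam10, which shed TAM receptors from the surface, rose by 0.43 (adjusted p = 0.0126) and 0.24 (adjusted p = 0.0561). The call of Adam10 was lost without F4/80high replicate 1 (adjusted p = 0.131), F4/80high replicate 3 (adjusted p = 0.145) or F4/80low replicate 1 (adjusted p = 0.219). Furin, a proprotein convertase, fell by 0.37 on the log2 scale (adjusted p = 0.0232).

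Tyro3, the remaining TAM receptor, was scarce. It stood at 1.04, 6.13 and 1.52 CPM in F4/80high and at 0.591, 0.512 and 0.432 CPM in F4/80low libraries, and rose with a log2 fold change of 2.49 (SE 0.67, adjusted p = 0.0157, edgeR). The highest value was that of F4/80high replicate 2, the library with the highest fibroblast marker sum, and without it the log2 fold change was 1.32 (adjusted p = 0.0269). The part of fibroblasts in the Tyro3 difference was not tested.

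Of 15 other phosphatidylserine and apoptotic cell receptors tested, 6 rose, 6 fell and 3 were not called. Stab1, the scavenger receptor stabilin-1, rose from 315 ± 65.2 to 3463 ± 748 CPM (SD, n = 3 each, log2 fold change 3.46, SE 0.21, adjusted p = 8.52e-06, edgeR). Cd93, a C-type lectin-like receptor, rose by 1.87 (adjusted p = 0.000104). Itgb3, the β3 partner of αv integrin, fell from 9.89 ± 1.25 to 1.37 ± 0.642 CPM (log2 fold change -2.83, adjusted p = 0.000164), whereas Itgb5, the β5 partner, rose from 465 ± 79.2 to 747 ± 50.4 CPM (log2 fold change 0.68, adjusted p = 0.00349). Among relatives of Cd300a, Cd300lf fell by 1.47 (adjusted p = 0.000384) and Cd300lb by 0.72 (adjusted p = 0.00703), and Cd300ld had a log2 fold change of -0.28 and was not called.

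Of the engulfment and cytoskeletal genes, 4 of 18 rose, 3 fell and 11 were not called, a called share of 38.9%. Of the relatives of Elmo1 and Dock1 on the list, 1 of 2 Elmo genes and 1 of 2 Dock genes fell. Elmo2 fell from 179 ± 7.96 to 101 ± 1.22 CPM (SD, n = 3 each, log2 fold change -0.83, adjusted p = 6.32e-05, edgeR), and Dock5 fell by 1.48 (adjusted p = 5.74e-05). Rac2, a GTPase of blood cells, fell by 0.56 (adjusted p = 0.00167), while Rac1 itself had a log2 fold change of 0.06, Elmo3 one of -0.26 and Dock2 one of -0.08, and none of the 3 was called. The 4 that rose were Gulp1, Bcar1, Abl1 and Crkl, with log2 fold changes of 1.78, 1.72, 0.43 and 0.21. Gulp1 was scarce, at 0.360, 0.638 and 0.616 CPM in F4/80high and 0.164, 0.205 and 0.0865 CPM in F4/80low libraries. In F4/80low replicate 3 it lay under the 0.130 CPM that 3 counts are worth there. Bcar1 stood at 6.17, 14.9 and 6.81 CPM against 4.10, 1.57 and 2.77 CPM. Its highest value was in F4/80high replicate 2, the library with the highest fibroblast marker sum. The part of fibroblasts in the Bcar1 difference was not tested.

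Later steps were mixed too. Of 15 phagosome maturation genes 3 rose and 6 fell, among them Dnase2a, the lysosomal nuclease that degrades the DNA of engulfed cells (0.90 higher on the log2 scale, adjusted p = 0.000136, edgeR), and Uvrag, an autophagy and endosome gene that fell by 1.04 (adjusted p = 6.92e-05). Of 11 lipid handling genes 5 rose and 6 fell. The cholesterol exporter Abca1 had a log2 fold change of 2.17 (adjusted p = 0.000509). Abcg1 and Abca7 of the same list went the other way, at -0.63 (adjusted p = 0.00473) and -0.88 (adjusted p = 0.0003). Slc7a11, the cystine transporter, had a log2 fold change of -3.26 (adjusted p = 5.88e-05). Of 10 regulators linked to TAM signaling 2 rose and 5 fell. Twist1 and Rxra had log2 fold changes of 2.33 and 0.61. Twist1 was scarce, at 2.12, 4.68 and 1.56 CPM in F4/80high and 0.525, 0.410 and 0.735 CPM in F4/80low libraries. Its highest value, too, was in F4/80high replicate 2, and the part of fibroblasts in it was not tested. Socs1 and Socs3, the suppressors of cytokine signaling, had log2 fold changes of -0.83 and -0.71, and Nr1h3, the LXRα gene, one of -0.89.

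Of 10 genes for find-me and inhibitory signals, 4 rose and 4 fell. Cx3cr1, the receptor for the find-me chemokine CX3CL1, rose by 1.56 (adjusted p = 0.000109, edgeR). Gpr132, a lysophosphatidylcholine-responsive receptor, fell by 2.61 (adjusted p = 3.71e-05). Sirpa, the macrophage receptor for the don't-eat-me signal CD47, rose from 909 ± 55.7 to 1177 ± 79.9 CPM (SD, n = 3 each, log2 fold change 0.37, adjusted p = 0.0130). Cd47 itself fell from 370 ± 12.3 to 200 ± 20.8 CPM (SD, n = 3 each, adjusted p = 0.000168), and Pecam1, whose protein also signals against engulfment, fell by 1.70 (adjusted p = 0.000155).

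The type 1 lymphocyte libraries were not used to choose the 9 genes, so differences among them were tested. Elmo1 was the only one of the 9 with a mean above 25 CPM in any lymphocyte group. MFL NK libraries held 180, 229 and 249 CPM and MFL ILC1 libraries 166, 132 and 92.8 CPM. From the metastases, CD49a- NK libraries held 362, 216 and 235 CPM and CD49a+ NK libraries 191, 265 and 189 CPM. Each ILC1 library lay below each MFL NK library.

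Mfge8 followed, at 22.9, 24.8 and 15.9 CPM in the MFL NK libraries and 1.19, 5.71 and 6.16 CPM in ILC1. It stood at 6.46, 9.86 and 19.6 CPM in the CD49a- and at 2.42, 9.15 and 19.4 CPM in the CD49a+ NK libraries of the metastases. Both LM groups spread widely and overlapped MFL NK cells. Axl reached 7.39, 19.1 and 7.20 CPM in ILC1, above the 0.980, 2.28 and 0.881 CPM of the MFL NK libraries. Its counts were 0, 165 and 12 in LM CD49a- NK libraries, so that replicate 2 held nearly all of them, and 0, 33 and 10 in LM CD49a+ NK libraries.

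Of the TAM ligands, Gas6 was near absent from these cells and Pros1 was low, reaching 4.32 CPM at most, in ILC1 replicate 2. Gas6 had 2 counts in all 12 libraries together, both in ILC1 replicate 2. Pros1 had 22, 59 and 5 counts in ILC1, 6, 2 and 5 in MFL NK libraries, 18, 0 and 0 with CD49a in the metastases and 0 in each LM library without it. Mertk had 7 counts over the 12 libraries and at most 3 in any of them, and Dock1 had 18. Of the 41 counts of Timd4, 39 were in MFL NK replicate 1, and of the 91 of Cd300a, 66 were in ILC1 replicate 2. In these libraries 3 counts, taken here as a floor, were worth 0.220 to 0.334 CPM. Lower levels rest on fewer counts and cannot be told from absence with any certainty, and such floors cover counting error only.

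**Figure D4:**
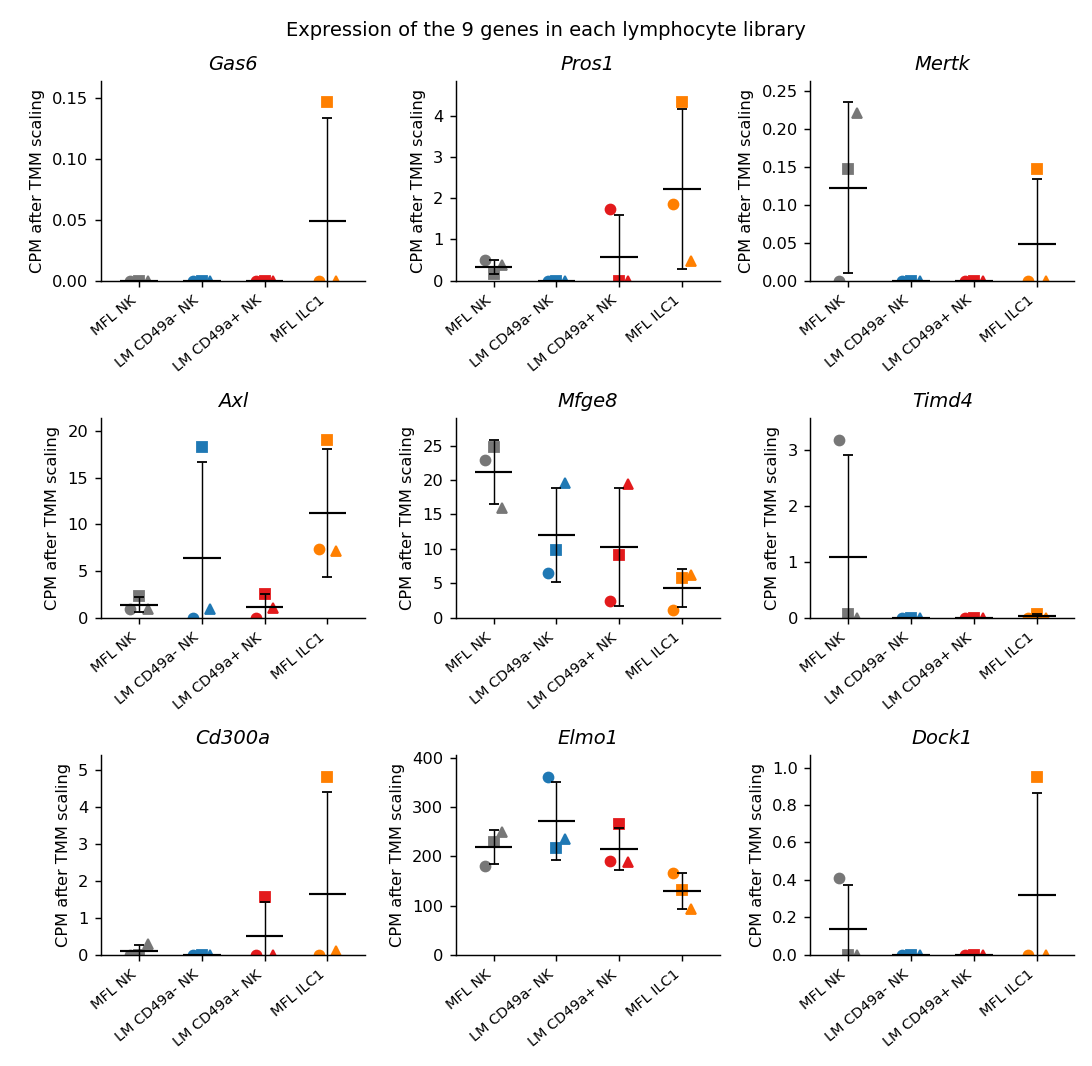
CPM after TMM scaling of each of the 9 genes in the 12 lymphocyte libraries (MFL NK grey, LM CD49a- NK blue, LM CD49a+ NK red, MFL ILC1 orange; circle, square and triangle are replicates 1, 2 and 3), with a line for the mean and bars for the SD, drawn from 0 upward. Axes differ between panels and the top of the Gas6 and Mertk panels is below 0.3 CPM, so isolated points there stand for 2 or 3 counts, whereas Elmo1 ranges from 92.8 to 362 CPM.

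Axl, Elmo1, Mfge8 and Pros1 passed the filter on low counts and were tested, and the other 5 were not. None of the 4 was called by edgeR in any of 4 comparisons, and DESeq2 called none either. DESeq2 gave Axl no adjusted p in the CD49a comparison within metastases, so it could not have called Axl there. At an unadjusted p under 0.05 there was 1 in the CD49a comparison within metastases (Pros1), 0 between either LM group and MFL NK cells, and 2 between ILC1 and MFL NK cells (Elmo1 and Mfge8). Of all 13594 genes tested, the same limit was passed by 1579 in the CD49a comparison within metastases. Against MFL NK cells it was passed by 914 for LM CD49a- NK cells, 1324 for LM CD49a+ NK cells and 1138 for ILC1. Few genes were called at all: 0.14% of 13594 between the LM groups, 0.0736% for LM CD49a- and 0.647% for LM CD49a+ against MFL NK cells, and 3.06% for ILC1 against MFL NK cells.

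In ILC1 against MFL NK cells, Elmo1 had a log2 fold change of -0.75 (SE 0.27, adjusted p = 0.247, edgeR) and Mfge8 one of -2.28 (SE 1.01, adjusted p = 0.512). Axl was at 3.01 (SE 1.94) and Pros1 at 2.69 (SE 2.33), both with an adjusted p of 1.00. The fit with these 2 groups alone, rather than all 12 libraries, called 3 of them: Axl (log2 fold change 3.00, adjusted p = 0.0507), Mfge8 (-2.29, adjusted p = 0.0608) and Elmo1 (-0.77, adjusted p = 0.0747). The share of all genes called by that fit is not given here, so these calls cannot be set against it. ILC1 libraries also held 236 to 680 CPM of 5 T cell markers, against 4.41 to 12.2 CPM in MFL NK cells, and their part in these values was not tested.

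For CD49a+ against CD49a- NK cells of the metastases, Elmo1 had a log2 fold change of -0.33 (SE 0.27, adjusted p = 0.687, edgeR), Mfge8 one of -0.21 (SE 0.97, adjusted p = 0.974) and Axl one of -2.41 (SE 1.90, adjusted p = 0.677). Without LM CD49a- replicate 2 the value of Axl was 1.30. Pros1, with an unadjusted p of 0.0484, had an adjusted p of 0.428, and its 18 counts in LM CD49a+ cells were all in replicate 1. Against MFL NK cells, the log2 fold change of Elmo1 was 0.31 (SE 0.27) for CD49a- and -0.03 (SE 0.27) for CD49a+ NK cells of the metastases. For Mfge8 these were -0.82 (SE 0.97) and -1.04 (SE 0.98). LM tissue was digested with an enzyme and MFL tissue was not, so site and dissociation cannot be told apart.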

How the data were processed

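Bulk RNA-seq tables of the 6 MAM and 12 lymphocyte libraries were used. The authors deposited estimated counts for each gene without scaling, made with Salmon (v1.10.0 for MAMs, v1.5.0 for lymphocytes, after Trim Galore, on GRCm39, per the submitters' processing notes). MAM libraries came from a directional poly(A) kit and lymphocyte libraries from a stranded total RNA kit. The annotation release of the MAM table is not given in the sources used here, and its lowest gene total over the libraries is 37, so scarce genes had been removed. The legend of the study gives 3 independent sortings of the lymphocytes.

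Counts were rounded to whole numbers and IDs were named from GENCODE vM39, which held 13726 of 13759 MAM and 53700 of 54309 lymphocyte IDs. edgeR v4.0.16 (R v4.3.3, limma v3.58.1) scaled libraries by TMM, filtered genes with filterByExpr (13759 and 13594 kept) and fitted its quasi-likelihood model to each table separately, the 4 lymphocyte groups in one fit. A gene was called at an adjusted p under 0.1 (Benjamini-Hochberg, over all genes tested). The SE, the log2 fold change divided by the square root of F, is approximate. CPM per kb used the union of a gene's exons, not the lengths the counting used. With 3 libraries against 3, an exact permutation test cannot give a p under 0.1. The test was tried on simulated counts, with a log2 change of 3 put into 200 genes. It recovered 94.5% of them in the MAM contrast and 49.5% in the CD49a contrast within metastases. False calls were 9.13% and 6.6% of its calls. A gene not called in the lymphocytes may therefore still differ.

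The 9 genes, the pathway list and the 13 marker lists were chosen with earlier results of these data known. Named pathway genes are, per direction, the 8 called genes with the smallest adjusted p and a mean of at least 5 CPM, plus Tyro3 and the vitamin K and shedding list. For likeness, the 3 genes with the highest correlation of log2 CPM (prior count 2) are named. Alternatives were DESeq2 v1.42.0, its size factors, other filters and thresholds, a replicate block, fits of 2 groups only and each library left out.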

Additional observations from a re-analysis of the deposited data

How the results depend on the processing

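In the MAMs, the 5 genes higher and 4 lower in F4/80high kept their direction under each alternative run, with log2 fold changes of 6.27 to 6.90 for Gas6, -4.75 to -4.04 for Timd4, -0.56 to -0.36 for Axl and 0.28 to 0.48 for Elmo1. Pathway calls ranged from 28 to 32 higher and 30 to 37 lower. Among values that answer a comparison, 110 of the planned values stayed within the limits set and 1 moved: the genes called between ILC1 and MFL NK cells numbered 3 when only these 2 groups were fitted, against 0. The cause was not tested, and the share of all genes called in that fit is not given here. The main fits did not pair same-numbered libraries. The sources used here do not say whether a shared number means a shared sort, and correlations cannot settle it. Deviations of same-numbered libraries correlated at -0.0145 to 0.172 in the MAMs, where 2 of 6 libraries correlated best with their own number. In the lymphocytes they correlated at -0.0452 to 0.0981 (8 of 12). With a replicate block, pathway calls were 32 higher and 37 lower, and the log2 fold change of Pros1 in LM CD49a+ against MFL NK cells turned from 0.77 to -0.73. That value ran from -5.02 to 1.35 with 1 library left out. No other direction turned with the block.

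The remaining reversals were all of uncalled values in LM lymphocytes. Elmo1 in LM CD49a+ against MFL NK cells turned from -0.03 to 0.0132 with DESeq2's size factors and with the DESeq2 test, to 0.0032 with a minimum mean of 5 CPM, and ran from -0.21 to 0.070 with 1 library left out. Leaving out 1 library gave -3.66 to 1.30 for Axl and -1.05 to 0.34 for Mfge8 between the LM groups, -1.51 to 2.78 for Axl in LM CD49a- and -1.46 to 0.36 in LM CD49a+ against MFL NK cells. LM CD49a- replicate 2, with 165 of the 177 counts of Axl in its group, set the sign of both Axl values it entered. Of the 9 genes, only Elmo1 exceeded 200 counts in each of the 12 libraries. In an alternative chosen after seeing the data, DESeq2 called more pathway genes in the lymphocytes than edgeR: 2 against 0 between the LM groups, 2 against 1 and 3 against 1 for LM CD49a- and LM CD49a+ against MFL NK cells, and 11 against 6 for ILC1. The cause of this difference was not tested either. The share of all genes that DESeq2 called in these comparisons is not given here.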

Other observations

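Of the 97 other pathway genes, 74 were tested in the lymphocytes, where the β3 integrin that fell in F4/80high MAMs was higher in 3 groups. In metastasis-free liver Itgb3 stood at 15.3 ± 3.88 CPM (NK cells) and 84.3 ± 9.59 CPM (ILC1), SD with n = 3 each. In the metastases its level was 69.3 ± 9.15 CPM without CD49a and 161 ± 43.6 CPM with CD49a (SD, n = 3 each). Its log2 fold changes against MFL NK cells were 2.18 (LM CD49a-, adjusted p = 0.0116, edgeR), 3.40 (LM CD49a+, adjusted p = 4.25e-05) and 2.46 (ILC1, adjusted p = 9.81e-05), and these comparisons share the MFL NK libraries. By edgeR, Itgb3 was the only pathway gene called for either metastasis group against MFL NK cells, where DESeq2 called 2 (LM CD49a-) and 3 (LM CD49a+). In the CD49a comparison within metastases edgeR called 0 and DESeq2 called 2. At an unadjusted p under 0.05 (edgeR) there were 10 of the 74, beside 1579 of all 13594 genes. Between ILC1 and MFL NK cells edgeR called 6, 8.11% of those tested against 3.06% of all genes, and DESeq2 called 11. The shares of all genes that DESeq2 called are not given here. Besides Itgb3, Itgav, the αv integrin, rose by 1.09 (adjusted p = 0.0536, edgeR), whereas S1pr1, Cx3cr1, Cd300lf and Npc1 fell, with log2 fold changes of -7.42, -4.94, -4.50 and -1.20.

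The difference between the CD49a contrast in metastases and that in metastasis-free liver (ILC1 against NK cells) was tested as an interaction for the 4 of the 9 genes that passed the filter. None was called and none had an unadjusted p under 0.05: Axl had a log2 difference of -5.42 (adjusted p = 0.616, edgeR), Pros1 3.08 (adjusted p = 0.844), Mfge8 2.07 (adjusted p = 0.765) and Elmo1 0.42 (adjusted p = 0.866).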
